A study of Homo sapiens with 4 samples.

Results

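The 45 genes described here encode the proteins of the large (60S) subunit of the human cytosolic ribosome, RPL3 to RPL41 with the stalk proteins RPLP0, RPLP1 and RPLP2, taken by gene symbol. They were looked up in a list of 68937 peaks of the protein PML, which names 18319 genes in all. PML, the organiser of PML nuclear bodies, was immunoprecipitated with a PML antibody from cross-linked cells of MDA-MB-231, a human cell line long established from a triple-negative breast cancer, and the recovered DNA was sequenced. The groups were 2 PML ChIP libraries and 2 input libraries of the same line, merged by the authors into 1 list, and the labels name no second antibody, treatment or genotype. The series asks how ribosomal genes and senescence are governed by PML with the kinase mTOR and the promoter-binding protein RONIN (THAP11). Each row of the list is a peak with a position on hg38, a whole-number score, and the gene with the nearest transcription start. The score is the authors' own and its scale is not stated; it serves only to order peaks within the list, whose lowest score is 13 and median 34. Read depth is unknown and no replicate was kept apart, so no value has a replicate error and no difference between genes was tested.

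The large subunit carries the peptidyl transferase centre, where amino acids are joined, and the tunnel through which the growing chain leaves. Its proteins are made in near equal amounts and are encoded by single genes scattered over the chromosomes. Most of these genes are transcribed from short promoters that start at a C within a run of pyrimidines, and the messages then begin with the 5' terminal oligopyrimidine tract through which mTOR signalling controls their translation. Several of the genes also carry small nucleolar RNAs in their introns, and most have processed pseudogenes elsewhere in the genome.

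Most large subunit genes had a PML peak at the promoter. The table named 30 of the 45 genes, for 55 peaks (66.7%, beside 68.8% of all RefSeq protein-coding genes). It named 28 of them for a peak centred within 1000 bp of a transcription start. These 28 are 62.2% of the large subunit genes, and among all RefSeq protein-coding genes 54.4% were named for such a peak. Of the protein-coding genes that the table names at all, 78.6% were, beside 28 of 30 here. The 28 were the same in number with limits of 500 and 5000 bp, where the shares of named protein-coding genes were 70.6% and 87%. All 28 had exactly 1 peak within 1000 bp. RPL7 and RPL34 were named for more distant peaks alone. No row named the other 15, which were RPL4, RPL5, RPL8, RPL11, RPL12, RPL36A, RPL39, RPL41, RPL13A, RPL18, RPL19, RPL35A, RPL30, RPL23 and RPL23A.

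Because each peak is given to a single gene, the starts were also looked up directly. A start peak is used below for a peak centred within 1000 bp of a RefSeq start of the gene, whatever gene the row names. The RefSeq promoter table lists starts for 38 of the 45 genes. For RPL5, RPL7, RPL8, RPL23, RPL23A, RPL30 and RPL37 either end of the RefSeq gene was used instead. By this count 34 of 45 genes had a start peak, and 31 of the 38 in the promoter table (81.6%). Of all 15843 protein-coding genes in that table, 63.6% had a start peak. With a limit of 500 bp the counts were 30 of 38 and 56.9%, and with 5000 bp 34 of 38 and 70.5%. A peak lay over a listed start, or over a gene end for RPL7, RPL8 and RPL37, in 31 of the 45 genes. In the promoter table these were 28 of 38, beside 53% of all protein-coding genes in the promoter table.

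Of the 34 start peaks, 6 were listed under another gene. The strongest was at RPL8, a protein that reaches towards the peptidyl transferase centre. Its peak of 4050 bp, on chromosome 8 from 144789788 to 144793837, spanned nearly the whole gene, had a score of 298 and was listed under the microRNA gene MIR6850. RPL18 shared a peak of score 202, on chromosome 19 from 48618827 to 48619700, with SPHK2, the sphingosine kinase 2 gene. SPHK2 has a RefSeq start 328 bp upstream on the other strand. The list uses a nearer SPHK2 start, at which the distance of the peak is -28 bp. RPL12, at the base of the stalk, shared a peak of score 124 with LRSAM1, a ubiquitin ligase gene with a RefSeq start 80 bp upstream. At RPL7 a peak of score 120, listed for the retinol dehydrogenase gene RDH10, lay over an end of the RefSeq gene and was counted by that end. The TSS that the list uses for RPL7 lies outside this peak, more than 1000 bp from its centre. By that TSS, RPL7 has no start peak. RPL4, a protein of the tunnel wall, was near a peak of score 73 listed for the kinetochore gene ZWILCH. That peak, 264 bp wide, was centred 602 bp upstream of the RPL4 start and did not reach it. RPL36A had a peak of score 36 over its start, listed under the read-through gene RPL36A-HNRNPH2. In the promoter table, 4 of 38 large subunit genes (10.5%) and 8.02% of all protein-coding genes had start peaks listed under other genes alone.

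**Figure D1:**
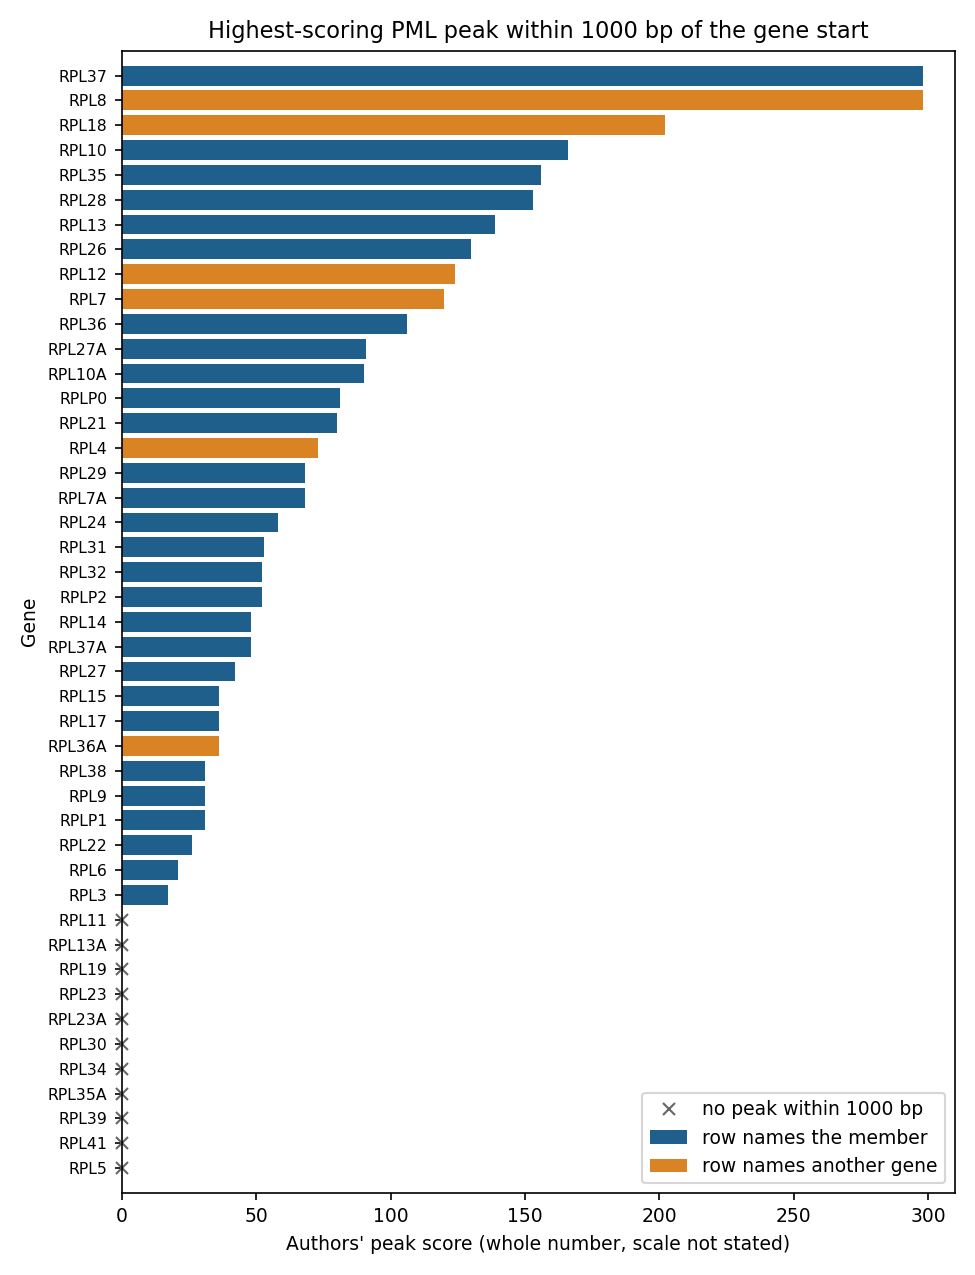
Score of the highest-scoring PML peak within 1000 bp of the start of each of the 45 genes (horizontal axis, the authors' score); bars are coloured by the gene that the row names, and crosses mark genes with no such peak. RPL8 and RPL37 stand highest at 298, RPL3 lowest at 17, and 11 genes have none.

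Scores at the starts ran from 17 at RPL3 to 298 at RPL37 and RPL8, with a median of 68 and quartiles of 37.5 and 123 over the 34 genes. For the 31 of them in the promoter table, which leaves out RPL7, RPL8 and RPL37, the median was 58 with quartiles of 36 and 98.5. All protein-coding genes of that table with a start peak had a median of 67, with quartiles of 42 and 106. By the gene named in the row the medians were 55.5 for the 28 large subunit genes and 63 for all protein-coding genes. A score of 100 or more was reached at 11 of the 45 starts; among the 38 in the promoter table these were 8 genes (21.1%), beside 17.9% of all protein-coding genes there. At 6 starts the score was at or below 34, the median of the whole list. The same 11 start peaks were among the 5000 highest-scoring peaks of the list; 19.6% of all protein-coding genes in the promoter table had one there, beside 8 of 38.

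RPL37, which encodes a small zinc-binding protein, had a peak of 1257 bp on chromosome 5 from 40834938 to 40836194, centred 344 bp upstream of the TSS. RPL10, a protein that joins the subunit late in its assembly, had a peak of score 166 and 2386 bp on the X chromosome from 154397413 to 154399798. RPL35, at the tunnel exit near the docking site of the signal recognition particle, followed with 156 (chromosome 9, 124861020 to 124862422). RPL28 had a score of 153 (chromosome 19, 55385695 to 55386696, in an intron by the table's class). RPL13 had 139 (chromosome 16, 89560220 to 89561921). RPL26, also at the tunnel rim and known for binding the p53 mRNA, had 130. Its peak centre lay 409 bp upstream of the TSS, the farthest of the 28 promoter peaks that name a large subunit gene. RPL36 had 106 (chromosome 19, 5690010 to 5690789, in the 5' UTR class). RPL27A and RPL10A followed at 91 and 90.

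The lowest starts held narrow peaks. RPL3, a protein whose extension points at the peptidyl transferase centre, had 17 in a peak of 301 bp; RPL6 had 21 in 456 bp at its listed starts, and RPL22, an RNA-binding protein on the outer surface, had 26 in 296 bp. The RPL6 gene in RefSeq reaches farther upstream, and over that end lay a peak of score 83 (chromosome 12, 112418606 to 112419493) listed for the neighbouring phosphatase gene PTPN11. RPL9, RPL38 and the stalk gene RPLP1 had 31 each. Over all 34 genes the start peaks had a median width of 802 bp, beside 817 bp over all protein-coding genes with a start peak.

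The letters around the start are shown for the 8 genes with the highest-scoring peak over a listed start, because their peaks lead among the genes whose promoter the RefSeq table holds. RPL8 and RPL37 (298 each) and RPL7 (120) are not in that table and are not shown. Windows are from RefSeq, GRCh38.p14, 5' to 3' on the strand of the gene, with 40 bases before the start and the first 15 transcribed bases. Base 41 is the start, and capitals mark the unbroken run of C and T through it. Where RefSeq lists several starts, the start with the longest run is shown.
RPL18, chr19:48619164-48619218, minus strand: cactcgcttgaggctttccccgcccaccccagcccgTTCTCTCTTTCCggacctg
RPL10, chrX:154398337-154398391, plus strand: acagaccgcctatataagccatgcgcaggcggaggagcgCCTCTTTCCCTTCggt
RPL35, chr9:124861943-124861997, minus strand: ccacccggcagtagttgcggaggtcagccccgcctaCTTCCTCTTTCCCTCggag
RPL28, chr19:55385892-55385946, plus strand: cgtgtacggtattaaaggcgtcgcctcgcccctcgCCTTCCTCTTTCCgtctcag
RPL13, chr16:89560642-89560696, plus strand: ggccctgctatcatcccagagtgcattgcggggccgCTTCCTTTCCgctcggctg
RPL26, chr17:8383179-8383233, minus strand: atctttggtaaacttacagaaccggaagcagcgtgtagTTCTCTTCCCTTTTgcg
RPL12, chr9:127451392-127451446, minus strand: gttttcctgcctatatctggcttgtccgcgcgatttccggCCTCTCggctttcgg
RPL36, chr19:5690255-5690309, plus strand: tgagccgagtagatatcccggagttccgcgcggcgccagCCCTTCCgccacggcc
All 8 windows start at a C and have at least 6 pyrimidines in a row there, with the longest run, 15 bases, at RPL35.

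The genes with no start peak that the promoter table holds are shown in the same way, chosen after their values were seen, since they are the promoters of the same family where the authors' list has no peak.
RPL11, chr1:23691766-23691820, plus strand: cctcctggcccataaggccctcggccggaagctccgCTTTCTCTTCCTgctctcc
RPL13A, chr19:49487568-49487622, plus strand: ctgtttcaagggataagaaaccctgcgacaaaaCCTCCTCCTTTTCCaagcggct
RPL19, chr17:39200283-39200337, plus strand: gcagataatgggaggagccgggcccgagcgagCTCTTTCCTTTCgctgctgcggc
RPL34, chr4:108620536-108620590, plus strand: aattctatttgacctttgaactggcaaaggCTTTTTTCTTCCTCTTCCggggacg
RPL35A, chr3:197950150-197950204, plus strand: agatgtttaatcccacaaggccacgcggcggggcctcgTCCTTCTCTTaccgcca
RPL39, chrX:119791616-119791670, minus strand: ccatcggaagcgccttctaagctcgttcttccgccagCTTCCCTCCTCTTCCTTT
RPL41, chr12:56116593-56116647, plus strand: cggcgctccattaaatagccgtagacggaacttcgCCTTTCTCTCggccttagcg
Their runs were of 10 to 22 bases, and that of RPL39 goes on past the window.

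The pyrimidine start was thus found in genes with and without a PML peak. A C at the start followed by 4 pyrimidines occurred in 28 of the 38 large subunit genes (73.7%) and in 6.24% of all protein-coding genes of the promoter table. It occurred in 22 of the 31 with a start peak and in 6 of the 7 without. The longest run through a listed start had a median of 12 bases over the 38 genes, 11 over those with a start peak and 12 over those without. RPL7A, a host of several small nucleolar RNAs, had the longest, 25 bases. RPL4, RPL9, RPL10A, RPL17, RPL27 and RPL32 had no pyrimidine at any listed start. RefSeq starts can differ by a few bases from the starts used in these cells, which moves such a run.

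**Figure D2:**
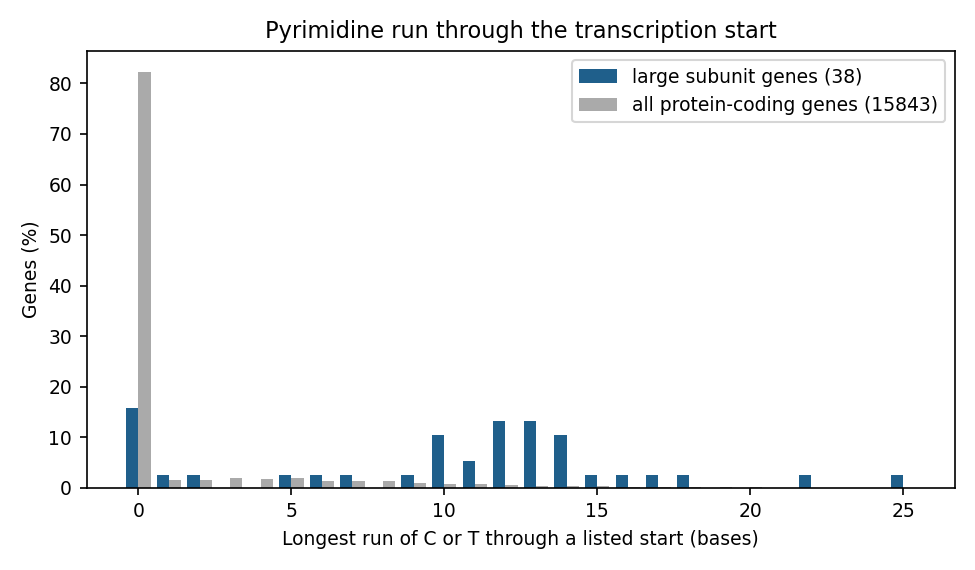
Longest run of C or T through a listed start (horizontal axis, bases) as a share of genes (vertical axis, percent), for the 38 large subunit genes and for all 15843 protein-coding genes of the promoter table. Large subunit genes centre on a median of 12 bases, while most other genes have 0; all-gene runs over 25 bases are not drawn.

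Other short sequences were counted in the 300-base windows on both strands. The ETS core CCGGAA was in 20 of 38 large subunit genes (52.6%) and in 26.6% of all protein-coding genes. It was in 16 of the 31 with a start peak and in 4 of the 7 without. ACTACA, the first letters of the element bound by RONIN and ZNF143, was in 5 of 38 (13.2%) beside 10.4% of all. The 5 were RPL4, RPL7A, RPL15, RPL26 and RPL35, with start peaks of score 36 to 156. A start peak was present at 31 of all 38 genes. The longer form, in which ACTACA is followed by any pair of bases and TCCC, was in RPL15 alone (2.63%, beside 3.11% of all), where the peak had a score of 36. The YY1 core AAGATGG was in 5 of 38 (13.2% beside 7.9%), the SP core GGGCGG in 21 (55.3% beside 64.3%), the E-box CACGTG in 2 (5.26% beside 10.9%), and the TATA letters TATAAA in 3 (7.89% beside 12.4%). With and without a start peak, the YY1 core was in 3 of 31 and 2 of 7 genes, the SP core in 16 of 31 and 5 of 7, the E-box in 0 of 31 and 2 of 7, and the TATA letters in 3 of 31 and 0 of 7. These are matches of letters and do not show that a factor is bound.

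The groups by place in the subunit are small, and their counts stand beside start peaks at 81.6% of large subunit genes and 63.6% of all protein-coding genes in the promoter table. The genes of the 5S ribonucleoprotein had no start peak. RPL5 and RPL11, which carry 5S rRNA into the subunit and bind MDM2 when they are left unassembled, both lacked one. The nearest peak of the list lay 47304 bp from the closer end of RPL5 and 51916 bp from the closest start of RPL11, and the rows named EVI5 and ELOA.

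All 4 genes of the stalk and its base had a start peak. The stalk recruits the translation factors that hydrolyse GTP. RPLP0, its anchor, had a score of 81, RPLP2 had 52, RPLP1 had 31, and RPL12 had the 124 of the peak listed for LRSAM1. The 4 genes grouped here around the peptidyl transferase centre, with RPL4 of the tunnel wall among them, also each had one. Their scores ran from 17 at RPL3 through 73 at RPL4 and 166 at RPL10 to 298 at RPL8. In this group the RPL4 peak is the one that stops short of the start.

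At the rim of the exit tunnel, 6 of 9 genes had a start peak, with a median score of 44.5. RPL35 (156) and RPL26 (130) were high, RPL31 had 53, RPL17 36, RPL38 31 and RPL22 26. RPL19, RPL23A and RPL39 had none. RPL23A forms the docking site for the signal recognition particle together with RPL35, which had the highest score of this group. The peak nearest to RPL23A lay 1949 bp from its closer end, with a score of 122, and was listed for TLCD1.

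Of the other 26 genes, 20 had a start peak, with a median score of 68. Those not yet given were RPL21 at 80, RPL7A and RPL29 at 68, RPL24, which forms a bridge to the small subunit, at 58, RPL32 at 52, RPL14 and RPL37A at 48, RPL27 at 42 and RPL15 at 36. The 6 without were RPL13A, RPL23, RPL30, RPL34, RPL35A and RPL41.

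The 11 genes without a start peak were of unlike kinds by distance. RPL41, which encodes the shortest ribosomal protein, had a peak of score 90 centred 1528 bp from its start, over the end of the gene and listed for ZC3H10. RPL19 (3060 bp, score 21) and RPL13A (3143 bp, score 21) had a peak within 5000 bp of a start. RPL23A had one 1949 bp from its closer gene end, which may not be its start. RPL34 had its own peak 6136 bp into the gene, with a score of 36, and the closer end of RPL23 lay 6531 bp from a peak of score 48. For RPL30 the distance was 19248 bp, from its closer end, and for RPL39 32761 bp. RPL35A, a gene mutated in Diamond-Blackfan anaemia, was farthest from any peak, at 130699 bp. The last gene inside the limit of 1000 bp was RPL4 at 602 bp, and the first outside it was RPL41.

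**Figure D3:**
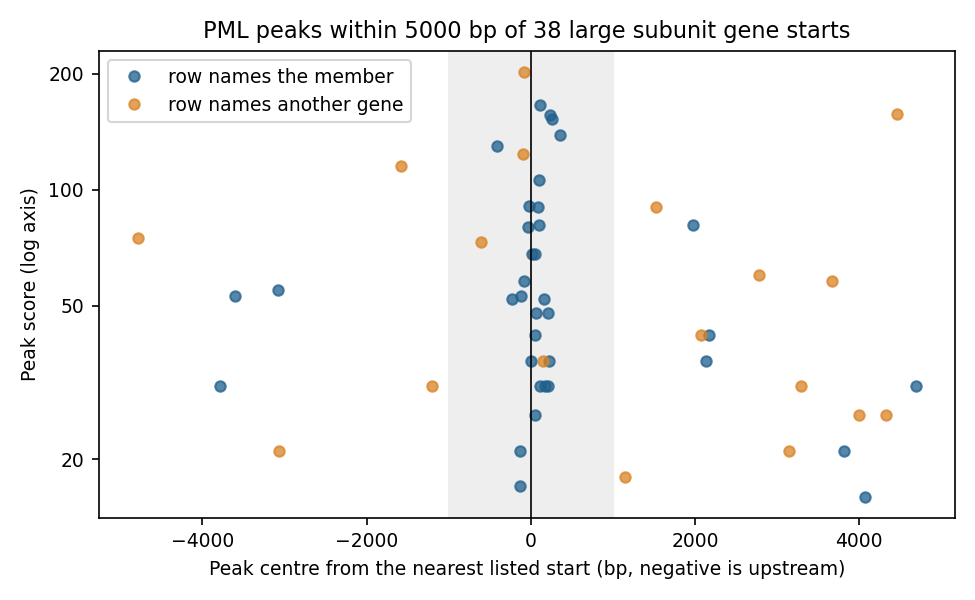
Each point is a PML peak within 5000 bp of a start of the 38 genes in the promoter table: distance of its centre from the nearest listed start (horizontal axis, bp, shaded within 1000 bp) and its score (vertical log axis), coloured by the gene the row names. Of 54 peaks, 30 lie within 500 bp and 23 beyond 1000 bp.

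Peaks within 1000 bp of a TSS were more often centred on the transcribed side, as over all protein-coding genes. The 28 peaks that name a large subunit gene within this limit had a median distance of 63 bp downstream of the TSS. They ran from -409 bp at RPL26 to 359 bp at RPL13, and the limit itself bounds these distances. Of the 28, 19 were centred downstream (67.9%), beside 71.2% of the highest-scoring promoter peaks of all protein-coding genes, whose median was 113 bp. By the table's classes, 22 were promoter-TSS, 5 were in an intron and 1 in a 5' UTR. The TSS implied by the row lay within 2 bp of a start or gene end in RefSeq for 25 of the 28.

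The start of another gene on the opposite strand was found within 1000 bp upstream for 13 of the 38 genes, beside 22.1% of all protein-coding genes in the promoter table. The count may miss partners, since RPL7A is not among the 13 though its start peak was annotated to a promoter of MED22. Of these 13 genes, 10 had a start peak, beside 82.6% of all protein-coding genes with such a partner and 31 of 38 large subunit genes with or without one. The partner was protein-coding for 9, of which 8 had a start peak (83.5% over all such protein-coding genes), the exception being RPL35A, whose partner DRC9 starts 265 bp away. The closest pair was RPL15 and NKIRAS1, whose starts are 43 bp apart under a peak of score 36 listed for RPL15. At RPL9, LIAS, the lipoic acid synthetase gene, starts 134 bp upstream under a peak of score 31. RPL35 and the Arp2/3 subunit gene ARPC5L start 173 bp apart under the peak of score 156. The peaks cannot be divided between the partners of such a pair.

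The surroundings of the genes differed in peak number. Within 100 kb of the gene ends, leaving out the first 5 kb, the 34 genes with a start peak had a median of 9.5 peaks (0 to 52) and the 11 without had 4 (0 to 13). Over protein-coding genes of the promoter table the medians were 7 with and 3 without a start peak. RPL10 (52 peaks), RPL28 (47), RPLP2 (39) and RPL8 (38) had crowded surroundings and start peaks of 166, 153, 52 and 298. RPL37 had the same score of 298 with 9 peaks around it. RPL35A and RPL38 had 0 around them, without a start peak and with one of 31. The part of the surroundings in the start peaks was not tested.

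**Figure D4:**
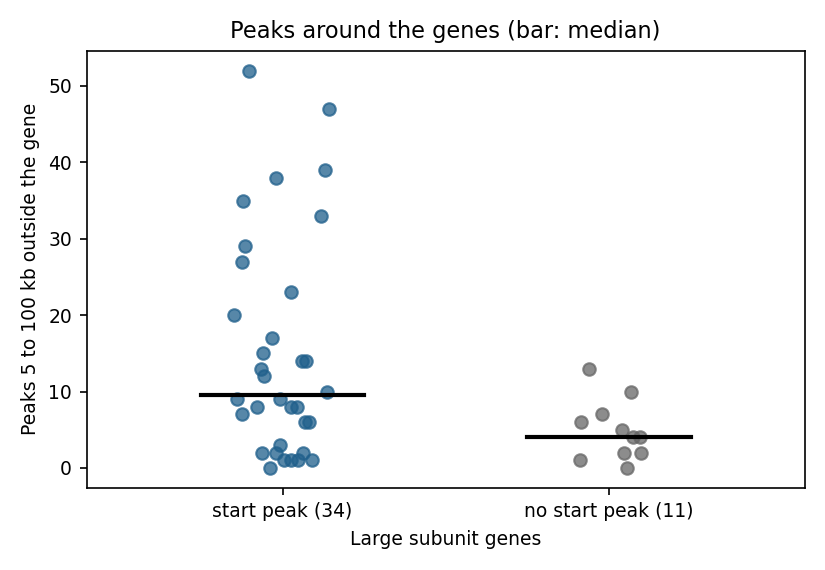
Number of peaks between 5 and 100 kb outside each gene (vertical axis) for the 34 large subunit genes with a start peak and the 11 without; points are genes, spread sideways for sight only, and bars are medians of 9.5 and 4. The genes above 30 peaks all have a start peak.

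The other 27 peaks that name a large subunit gene lay farther from a TSS, at 13 genes. They were lower and narrower, with a median score of 32 and width of 369 bp, beside 55.5 and 751.5 bp for the 28 promoter peaks; over all peaks of the list more than 1000 bp from a TSS the medians were 31 and 402 bp. Of the 27, 13 lay in a transcript of another gene, 8 were intergenic and 6 were in a transcript of the gene itself. RPL31 and RPL36 were named for 6 peaks each. At RPL31, 4 of them lay in TBC1D8 and 1 in NPAS2, with scores of 23 to 40. At RPL36, 3 lay in LONP1, the mitochondrial protease gene, and 1 in HSD11B1L. RPL32 was named for 5 peaks, among them 1 of score 47 in an SVA_D element at -8442 bp from the TSS and 1 of score 30 in CAND2. RPL29 was named for 4, among them 1 of score 21 in an LTR12C element. RPL15 had a peak of score 17 in another LTR12C element, at -33886 bp in UBE2E1.

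The highest of these 27 was at RPL10, a peak of score 240 at a CpG island -7701 bp from the TSS, on the X chromosome from 154390079 to 154390649. It stood above the 166 of the RPL10 start peak. A second distant RPL10 peak, at -3782 bp, had a score of 31. At RPL7 the named peak lay 8008 bp downstream of the TSS at a CpG island and had a score of 86. RPL9 was named for a peak of score 80 in an exon of KLB, and its own start peak had 31. RPL37A had a second peak of score 13, the lowest of the list, in SMARCAL1. RPL27A had a second peak of score 53 at -3604 bp. Within the genes themselves, RPL35 had a peak of 42 in intron 3 and RPLP0 a peak of 36 in exon 5.

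Other genes of the ribosome are given beside the large subunit, with no test between the lists. Of the small subunit genes in the promoter table, 23 of 26 had a start peak (88.5%), with a median score of 92 beside 58 for the 31 large subunit genes counted in the same way, which leaves out RPL7, RPL8 and RPL37. A score of 100 or more was reached by 42.3% of small subunit genes and 21.1% of large subunit genes. RPS7 (417), RPS21 (243) and RPS3A (230) led the small subunit, and RPS13, RPS23 and RPS27 had no start peak. Of the mitochondrial large subunit genes, 35 of 45 had one (77.8%), with a median of 75, led by MRPL40 (260), MRPL30 (213) and MRPL16 (211). A score of 100 or more was reached by 26.7% of them. Over all protein-coding genes of the promoter table, 63.6% had a start peak, with a median score of 67, and 17.9% reached 100.

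**Figure D5:**
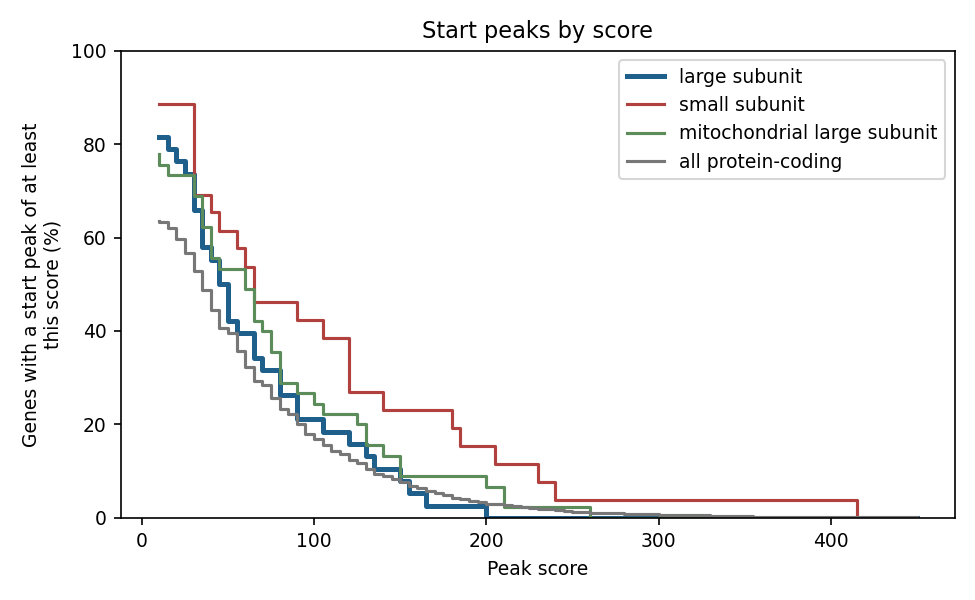
Share of genes with a start peak of at least a given score (vertical axis, percent) against the score (horizontal axis) for large subunit, small subunit, mitochondrial large subunit and all protein-coding genes of the promoter table. At a score of 100 the shares are 21.1%, 42.3%, 26.7% and 17.9%; RPL7, RPL8 and RPL37 are not in the promoter table and are left out.

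Factors that assemble the large subunit had a start peak at 38 of 43 genes in the promoter table (88.4%), with a median score of 65.5. Over all protein-coding genes of that table the share was 63.6% and the median 67. BRIX1, a nucleolar assembly factor, had 437 in a peak listed for the divergent gene RAD1. ZNF622, a factor of late cytoplasmic maturation, had 212, and MDN1, the giant ATPase that strips assembly factors, had 180. GRWD1, the chaperone of RPL3, had 21, and RPL3 itself 17. FTSJ3, LSG1, NOC2L, SDAD1 and WDR12 had none. Of 7 paralogs outside the 45, 4 were named for a promoter peak (57.1%, beside 54.4% of all RefSeq protein-coding genes). RPL26L1 had a start peak of 90 that was listed for another gene. RPL39L, which is not in the promoter table, was named for a promoter peak of 61. RPL22L1 had a start peak of 26, the score of its paralog RPL22. RPL39 itself had no start peak. RPL3L and RPL10L, paralogs best known from muscle and testis, were named for no peak within 1000 bp of a TSS.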

How the data were processed

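Per the labels, PML ChIP and input libraries of MDA-MB-231 cells (2 of each) were merged before peaks were called against input. The tools in the submitters' processing notes are MACS2 2.1.1.20160309, BWA 0.7.12, HOMER 4.11.1, Trimmomatic 0.36 and Picard 2.0.1, and the build is hg38; settings are not given in the sources used here. As deposited, the table holds, per the file headers, a peak score, a start and end in bp, the signed distance to the nearest TSS and its gene; the authors give the score in whole numbers on an unstated scale. Depth is unknown.

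Here the rows naming a member were taken, and peak centres were compared with RefSeq starts of GRCh38.p14 (promoter table, or either gene end for 7 genes). A promoter peak is centred within 1000 bp; windows of 500 and 5000 bp and score limits were alternatives. The search for peaks at starts was tested on simulated data. Backgrounds are protein-coding genes of the same tables. Of the lists, 33 small subunit, 52 mitochondrial, 51 assembly and 7 paralog genes were matched; 1 item is not reported here. The members and lists were chosen with earlier results of these data known. Named genes are the 12 highest and 3 lowest members by score, those without a promoter peak, with several peaks or with a peak listed elsewhere, and the 3 highest of each other list. Small subunit, mitochondrial and assembly genes were compared as counts and medians; no test was made. Analyses used Python 3.11.15, numpy 2.4.6, pandas 2.3.3 and matplotlib 3.10.9.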

Additional observations from a re-analysis of the deposited data

How the results depend on the processing

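No paired analysis was possible because the duplicates were merged into 1 list before deposit, and for the same reason no replicate could be left out. With only the 5000 highest-scoring peaks, 7 genes were named for a promoter peak instead of 28, 7 were named for any peak instead of 30, and 11 had a start peak instead of 34; fewer peaks were kept by construction. The 28 stayed 28 with windows of 500 and 5000 bp and became 22 with peaks scoring above the list median. The count of start peaks was 32 with 500 bp, 38 with 5000 bp and 28 above the list median, and 31 when the 7 genes outside the promoter table were left out, an alternative chosen after seeing the data. The median promoter score was 55.5 by gene name and 68 by RefSeq start. A peak below the authors' threshold is not in the list, so a gene without a start peak may still have bound PML.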

Other observations

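Some peaks on the bodies of large subunit genes were listed under small RNA genes. On 13 of the 45 genes, 19 peaks named another gene, and 8 of these, on 6 genes, named a small nucleolar RNA. Shares over all protein-coding genes were not counted. The highest of the 8 lay at the end of RPL27A (score 120, chromosome 11 from 8688569 to 8689276, in the 3' UTR class) and was listed under SNORA3B. On RPL10 a peak of score 60 was listed under SNORA70, on RPL13 peaks of 42 and 26 under SNORD68, on RPL3 a peak of 26 under SNORD83B, and on RPL13A, which has no start peak, a peak of 21 under SNORD33. On RPL28, 3 peaks were listed under MIR6805 (58, 47 and 42) and 1 under SNORD157 (26). The SNORD157 peak was annotated to another transcript, NM_014501, than the peaks of 58 and 47 (NM_000991).

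Pseudogenes of the large subunit genes were also looked up, and the share over all pseudogenes was not counted. Of 1256 RefSeq genes with a member's symbol followed by P and a number, 11 were the nearest gene of a peak, for 26 peaks in all with a median score of 36, and 5 had a peak within 1000 bp of the TSS. RPL23AP7 had the highest of these, 165 on chromosome 2 from 113626693 to 113627675, while RPL23A itself had no start peak. RPL13P5 had 58, RPL13AP20 42, RPL13AP6 36 and RPL23AP82 31. RPLP0P2 was named for 9 peaks, none of them within 1000 bp of its TSS. The table names a pseudogene only where its annotation holds a transcript for it, and reads shared between a gene and its copies cannot be told apart here.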
